A study of Mus musculus with 6 samples.

Results

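Of the 8781 promoter regions that were accessible in all 3 conditions of a TGFβ time course, 7324 (83.4%, 95% Wilson interval 82.6 to 84.2) did not reach a width of 2 times that in vehicle after 12 h, and these 7324 regions are described here. They are 18.6% of the 39435 regions accessible in any condition. They were chosen on the measured widths in the vehicle and 12 h lists, so those widths, and every count that rests on them, are given as a description. A region was a stretch of reproducible ATAC-seq peaks of at least 150 bp, joined where less than 1000 bp lay between them, and it counted as a promoter when an annotated transcript began in it or within 1000 bp of it. The other 1457 shared promoters, which had at least 2 times their vehicle width at 12 h, are called widened promoters and serve as the comparison.

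ATAC-seq uses the transposase Tn5 to insert sequencing adapters into open DNA. The cells were NMuMG, a mouse mammary epithelial line that turns mesenchymal under TGFβ, in 3 conditions with 2 biological replicates each. All cells were first held for 6 h in medium without serum and insulin. They then received either the carrier solution with bovine serum albumin (vehicle), which stayed on for 2 h, or TGFβ1. Its dose was 5 ng/ml and cells were taken after 2 h and 12 h. Vehicle cells were collected at 2 h, so that the effect of TGFβ at 12 h and that of a longer time without serum cannot be told apart. Both replicates of a condition were merged by the authors into 1 peak list, which leaves no spread between replicates and no test between conditions. The intervals below cover counting error only, and regions are not replicates of a condition.

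Promoters of genes that most cells need are usually rich in CpG dinucleotides, keep a stretch free of nucleosomes just before the transcription start, and have well-placed nucleosomes after it. Such promoters hold sites for broadly expressed factors, among them SP and KLF proteins, the trimer NFY, the ETS family, NRF1, YY1 and CREB. TGFβ signals through a pair of receptor kinases to SMAD2 and SMAD3, which enter the nucleus with SMAD4 and often act together with AP-1.

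The promoters are shown here by short stretches of their own sequence, since sequence was not part of their selection. For each of 6 factors, the stretches of 1 or 2 member genes with a match lie before the annotated start, outside annotated exons, and are written 5′ to 3′ on the strand of the gene in the NCBIM37 (mm9) assembly. Capitals mark the exact match to the motif or to its reverse complement. For the GC box of SP and KLF proteins, GGGCGGG, they come from Gapdh, a glycolytic enzyme (chr6:125116499-125116595, minus strand), and Tbp, the TATA-binding protein (chr17:15636723-15636819, plus strand).
Gapdh: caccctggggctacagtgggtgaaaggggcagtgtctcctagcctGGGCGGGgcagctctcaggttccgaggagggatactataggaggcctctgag
Tbp: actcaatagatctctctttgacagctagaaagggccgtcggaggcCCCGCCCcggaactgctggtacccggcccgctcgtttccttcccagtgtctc

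The CCAAT box of NFY was searched as CCAATCA and CCAATGA. It is shown for Rps27l, a ribosomal protein S27 relative (chr9:66793748-66793844, plus strand). The ETS motif CCGGAAGT is shown for the ribosomal protein genes Rpl26 (chr11:68715027-68715084, plus strand) and Rpl32 (chr6:115758786-115758883, minus strand).
Rps27l: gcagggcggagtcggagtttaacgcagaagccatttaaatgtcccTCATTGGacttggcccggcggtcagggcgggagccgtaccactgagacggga
Rpl26: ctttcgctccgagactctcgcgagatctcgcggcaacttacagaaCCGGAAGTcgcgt
Rpl32: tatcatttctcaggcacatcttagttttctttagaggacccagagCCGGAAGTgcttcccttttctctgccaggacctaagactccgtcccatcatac

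For NRF1, a regulator of genes for mitochondria, the letters GCATGCGC are shown in Eef1a1, the translation elongation factor (chr9:78329648-78329745, minus strand), and in Mrps28 of the mitochondrial ribosome (chr3:8923919-8923988, minus strand). For YY1, AAGATGGC or its reverse complement is shown in Mrpl36, another mitochondrial ribosomal protein (chr13:73468382-73468456, plus strand), and in Psmd7 of the proteasome (chr8:110112384-110112481, minus strand). For CREB and its relatives, the palindrome TGACGTCA is shown in Hsp90ab1, a chaperone (chr17:45710291-45710388, minus strand), and in Rpl13 of the ribosome (chr8:125626181-125626249, plus strand).
Eef1a1: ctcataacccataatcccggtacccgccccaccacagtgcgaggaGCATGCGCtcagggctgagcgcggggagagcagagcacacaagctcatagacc
Mrps28: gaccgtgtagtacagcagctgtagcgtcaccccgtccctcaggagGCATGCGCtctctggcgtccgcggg
Mrpl36: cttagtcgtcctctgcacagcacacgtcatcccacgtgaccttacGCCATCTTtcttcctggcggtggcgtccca
Psmd7: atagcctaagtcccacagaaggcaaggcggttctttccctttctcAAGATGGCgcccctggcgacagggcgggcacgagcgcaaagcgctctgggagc
Hsp90ab1: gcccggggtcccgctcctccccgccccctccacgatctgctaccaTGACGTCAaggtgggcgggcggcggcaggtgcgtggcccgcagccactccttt
Rpl13: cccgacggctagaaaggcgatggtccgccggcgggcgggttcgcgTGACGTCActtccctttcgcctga

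The genes shown differed in how their regions changed. The region of Rpl13 was 459 bp wide in vehicle and 484 and 477 bp after 2 h and 12 h. The region of Eef1a1 measured 1609, 1777 and 1614 bp, and that of Mrps28 1053, 979 and 1017 bp. By contrast, the region of Rpl32 measured 369 bp in vehicle and 693 and 690 bp after 2 h and 12 h, and that of Rps27l 697, 981 and 1178 bp. Where 3 widths are given without further words, they are in the order vehicle, 2 h and 12 h. Rpl26 had 651, 899 and 969 bp, Mrpl36 736, 649 and 622 bp and Psmd7 625, 681 and 983 bp, and the values of Gapdh, Tbp and Hsp90ab1 follow with the other reference genes.

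To compare the width of these promoters between conditions, the bases of each list within each region were compared. The median width was 809.5 bp in the vehicle list (quartiles 612 and 1057). It was 959 bp after 2 h (746 and 1210) and 978 bp after 12 h (774 and 1215). The 7324 regions thus held 6.38 Mb in vehicle, which was 58.5% of all bases of the vehicle list, 7.47 Mb at 2 h (33.5%) and 7.54 Mb at 12 h (32.3%). Most of them were wider with TGFβ. At 12 h, 5972 of the 7324 (81.5%, 80.6 to 82.4) exceeded their vehicle width, beside 83.7% of all 15154 regions found in the 3 lists. At 2 h, 5668 (77.4%, 76.4 to 78.3) did, beside 83.2% of all regions in the 3 lists. The selection removed the promoters that widened most and so lowers the members' shares by construction, and nothing is read from the gap to all regions.

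Both TGFβ lists gave similar widths. The median ratio to vehicle was 1.13 at 2 h and 1.17 at 12 h, and the median ratio of 12 h to 2 h was 1.01. At 12 h 55.6% of members (54.4 to 56.7) were wider than at 2 h, beside 54.5% of all regions in the 3 lists, which is a share near the background. A total of 5160 members (70.5%) were wider than vehicle at both times and 829 (11.3%) were narrower at both, whereas 501 (6.84%) were wider at 2 h and narrower at 12 h and 790 (10.8%) the reverse. Between 0.9 and 1.1 times the vehicle width were 2357 members (32.2%) at 12 h, and 1480 (20.2%) at both times. The selection required a region in the 2 h list but set no limit on its width. At 2 h, 259 members (3.54%) had at least 2 times their vehicle width. Both ratios share the vehicle list, so the changes at 2 h and 12 h are not independent of each other.

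**Figure D1:**
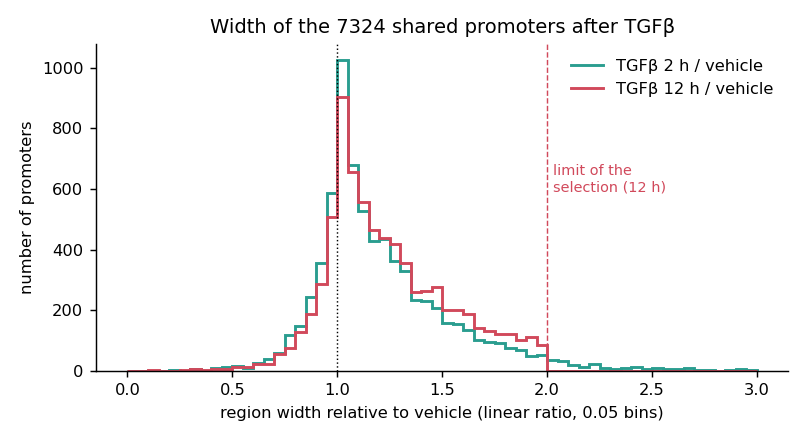
Number of promoters (vertical axis) by region width relative to vehicle (horizontal axis, linear ratio in bins of 0.05) at 2 h (green) and 12 h (red) of TGFβ for the 7324 members. Both distributions peak just above 1 and lean to the right, the 12 h values end at the limit of 2 that selected the members, and 49 values above 3 at 2 h are beyond the axis.

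The share of members wider at 12 h lay above 50% on each of the 20 chromosomes with shared promoters, between 73.0% on chromosome 19 and 89.2% on chromosome 4. The share of shared promoters that were members ranged from 76.0% on chromosome 12 to 88.2% on chromosome 9. Among shared regions away from starts, 4957 of 6373 (77.8%, 76.7 to 78.8) lay under the same limit. Their median widths were 494 bp in vehicle and 647 and 612 bp after 2 h and 12 h. Their median was thus lower at 12 h than at 2 h, while that of the promoters was higher. Both sets were cut on the 12 h width and kept different shares, so nothing is read from this contrast.

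Members with the lowest ratios often held fewer peaks at 12 h. Of the 22 that had under 0.5 times their vehicle width at 12 h, 16 had fewer separate peaks at 12 h than in vehicle, and the 5 lowest all did. In the proto-oncogene Myc (chr15:61818480-61819736), the vehicle list held a peak of 285 bp and one of 241 bp. Relative to the transcript start at position 61818977, the first lay from -400 to -116 bp and overlapped an untranslated exon of Myc, and the other lay from 519 to 759 bp and overlapped a coding exon. At 2 h and 12 h the peak before the start was listed with 371 and 387 bp, and the one in the coding exon was missing from both lists. With the gap between its peaks counted, the region of Myc measured 1160, 371 and 387 bp. Part of the larger value in vehicle is therefore the gap between the peaks.

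The same pattern was seen at Jagn1, which encodes a membrane protein of the endoplasmic reticulum, and Vgll4, a cofactor of TEAD factors. The region of Jagn1 (chr6:113391252-113392862) measured 1438, 452 and 435 bp. It lost a vehicle peak of 201 bp from -1311 to -1111 bp relative to the start, in sequence without an annotated transcript, while the peak over the start went from 275 bp to 452 and 435 bp. The region of Vgll4 (chr6:114870489-114872229) measured 1543, 318 and 497 bp and lost an intronic peak of 329 bp that lay from 1022 to 1350 bp after the start. In these 3 genes the peak at or next to the start was wider at both TGFβ times than in vehicle, although the region as a whole was narrower.

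At 1110032A04Rik (chr3:69663656-69666094) the region measured 2313, 1272 and 673 bp. The 1272 bp at 2 h leave out a gap of at least 1000 bp between 2 peaks. A vehicle peak of 1141 bp, from -2271 to -1131 bp relative to the start, was listed with 905 bp at 2 h and was missing at 12 h. The lowest ratio of all belonged to the region of Gm9765, which also reaches into Itln1 (chr1:173444809-173448799), with 3953 bp in vehicle and 3991 and 506 bp after 2 h and 12 h. Here the vehicle peak of 1215 bp over the start of Gm9765 was kept at 2 h with 1183 bp and was missing at 12 h. Of the 3 peaks in vehicle, the 12 h list kept 1, over an exon of Itln1.

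Fewer peaks were counted in a minority of the narrower regions. Of the 1334 members narrower at 12 h, 176 (13.2%, 11.5 to 15.1) had fewer peaks than in vehicle, and 829 (62.1%, 59.5 to 64.7) were narrower at 2 h as well. Ccna2, which encodes cyclin A2, was an example with 1 peak in each list, of 1016 bp in vehicle and 663 and 674 bp after 2 h and 12 h. Mafk, a small MAF protein that pairs with factors such as NRF2, had 1001, 589 and 518 bp. Zfp358, a zinc finger gene, had 1031, 674 and 666 bp. These also had 1 peak in each list, and in all 3 genes the 2 h and 12 h values lay closer to each other than to that in vehicle.

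The 5 members with the least spread had nearly the same width in each list. They were Glipr1 with 230 bp in all 3 lists, Gm11512 with 721 bp, Gm12896 and Gm12895 with 294 bp each, and Cdc42bpg with 780, 780 and 781 bp. The starts of Gm12896 and Gm12895 are annotated as pseudogenes, and that of Gm11512 as a transcribed processed pseudogene. The nearest start of Glipr1 lay outside its vehicle region. Gm12896 and Gm12895 have equal region width and both lie on chromosome 4, and whether reads of near-identical copies were shared between them was not tested. Among the regions widest in vehicle were Zfp367 with 3332, 3365 and 3359 bp and Tyw1 with 2932, 1914 and 2941 bp. Tyw1 had 3 peaks and nearly the same outer bounds in each list. Its lower value at 2 h leaves out a gap of at least 1000 bp between peaks. Myo18a had 3110, 3768 and 3978 bp, and the region over the divergent starts of Mus81 and Cfl1 had 2871, 3305 and 3327 bp.

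At the limit of the selection, the region of Mrpl10 went from 502 bp in vehicle to 1003 bp at 12 h, a ratio of 1.998, and those of 2310003H01Rik and 1110057K04Rik both went from 449 to 897 bp. Just outside were Tomm22, from 249 to 498 bp, Bad, from 639 to 1278 bp, and Zbtb43, from 653 to 1306 bp, each with a ratio of exactly 2. Mrpl10 was thus 1 bp short of the limit.

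To see on which side of the start the promoters became wider, the edges were measured along the direction of transcription in the 5784 members with 1 region in each list and annotated starts on 1 strand only. In vehicle these regions reached 369 bp upstream and 404 bp downstream of the start in the median. At 12 h the upstream edge had moved out by 24 bp in the median (quartiles 0 and 126) and the downstream edge by 51 bp (2 and 188). At 2 h the values were 17 bp (-2 and 101) and 37 bp (0 and 179). The downstream edge had moved out more than the upstream edge in 3300 of 5784 members at 12 h (57.1%, 55.8 to 58.3) and in 3289 at 2 h (56.9%, 55.6 to 58.1). This share lay above 50% on all 20 chromosomes at 12 h, between 51.5% and 63.2%. In the 1152 widened promoters that could be measured in this way it was 72.7% (70.1 to 75.2), with median shifts of 154 bp upstream and 402 bp downstream, as their selection favours large shifts.

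The shifts were not spread evenly. At 12 h the upstream edge was within 40 bp of its vehicle position in 48.6% of members (47.3 to 49.9) and the downstream edge in 35.1% (33.9 to 36.4). A further set of edges had moved out by 120 to 220 bp, 18.4% of upstream and 19.7% of downstream edges, and between them the counts dipped. In bins of 20 bp, upstream shifts at 12 h numbered 1267 from 0 to 20 bp, 161 from 80 to 100 bp and 270 from 140 to 160 bp. Downstream shifts numbered 842 from 0 to 20 bp, 142 from 80 to 100 bp and 261 from 180 to 200 bp. At 2 h the dips and the further maxima were seen as well, with 134 upstream shifts from 80 to 100 bp and 218 from 160 to 180 bp, and 132 downstream shifts from 100 to 120 bp and 241 from 160 to 180 bp. Inward shifts of 120 to 220 bp were rarer, at 3.99% of upstream and 4.18% of downstream edges at 12 h. The 2252 members with a single annotated start had a similar shape, with 50 downstream shifts from 80 to 100 bp and 104 from 160 to 180 bp.

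**Figure D2:**
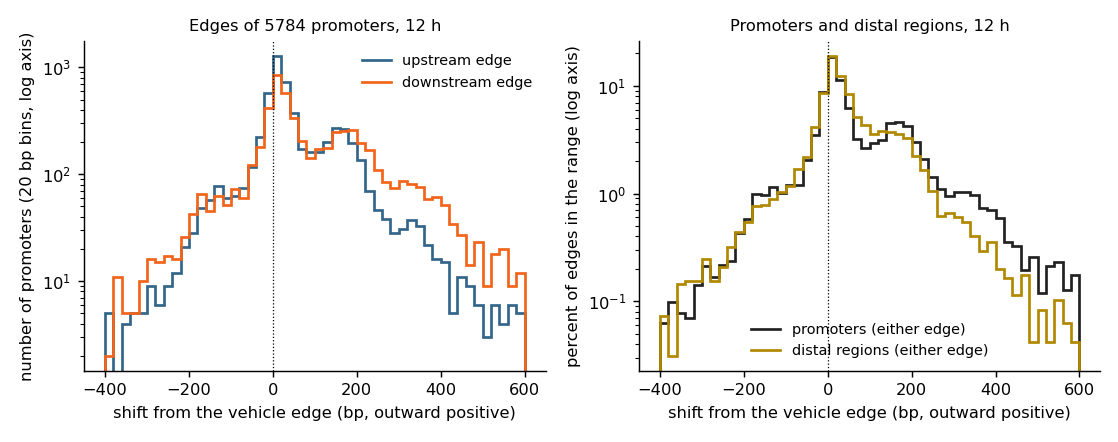
Left, number of promoters (log axis, bins of 20 bp) by shift of the upstream (blue) and downstream (orange) edge from vehicle to 12 h of TGFβ in bp, outward shifts positive, for 5784 members. Right, percent of edges within the plotted range (log axis) for members (black) and shared distal regions under the same limit (ochre), either edge. Member edges have a main maximum at 0 to 20 bp, a dip near 80 to 100 bp and a further maximum near 140 to 200 bp, while the counts of distal edges fall off with a shoulder in place of the dip.

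The distal regions under the same limit served to see whether such a step was general. There, 20.7% of edges had moved out by 40 to 120 bp at 12 h and 16.2% by 120 to 220 bp, over 4918 regions with 1 region in each list. In the 7253 members of this kind the shares were 14.6% and 19.1%. The share of shifts between 40 and 120 bp was lower in the promoters on all 20 chromosomes, with differences between -11.6 and -2.54 percentage points, and that between 120 and 220 bp was higher on 18 of 20. Intermediate shifts were thus rarer in promoters at 12 h. Both sets were cut on the 12 h width, so these shares and chromosome counts are given as a description. The limit was not set on the 2 h widths. At 2 h, 13.15% of member edges and 21.48% of distal edges had moved out by 40 to 120 bp. For 120 to 220 bp the 2 h shares were 16.28% and 15.05%, closer to each other than at 12 h. Distal regions were also narrower in vehicle, and the parts of width and of the limit in these differences were not tested.

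The place of the edges in each list, without reference to another list, was uneven as well. In vehicle, downstream edges of members gathered at 75 to 100 bp (155 members per bin of 25 bp), 250 to 275 bp (329) and 425 to 450 bp (280) after the start, with a smaller maximum at 600 to 625 bp (168). Between these lay 76 members at 150 to 175 bp, 205 at 350 to 375 bp and 134 at 575 to 600 bp. At 12 h, maxima lay at 100 to 125 bp (61), 325 to 350 bp (209), 450 to 475 bp (292) and 600 to 625 bp (218), with a dip at 350 to 375 bp (163). Their spacing was less even than in vehicle. Upstream edges in vehicle formed a broad plateau instead, with 290 members at 250 to 275 bp and 262 at 325 to 350 bp. These downstream maxima in vehicle were 175 bp apart, while in the 2252 members with a single start the second one lay at 300 to 325 bp (102), with 98 members in each of the bins at 250 to 275 and 275 to 300 bp, so that the spacing was less even there. The source of the spacing was not tested.

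**Figure D3:**
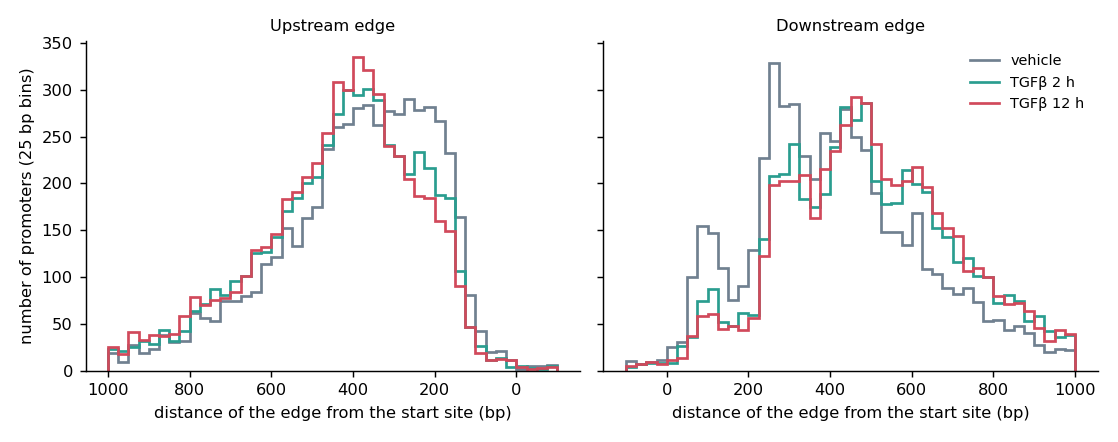
Number of promoters (bins of 25 bp) by distance of the upstream edge (left, axis reversed) and the downstream edge (right) from the annotated start in bp, in vehicle (grey) and after 2 h (green) and 12 h (red) of TGFβ, for 5784 members. Downstream edges in vehicle gather at 75 to 100, 250 to 275 and 425 to 450 bp, and with TGFβ the nearer maxima are lower and the counts beyond 500 bp higher.

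With the downstream side divided at 160, 360 and 540 bp, near the dips and after the counts had been seen, members passed from nearer to farther zones with TGFβ. In vehicle, 598 members (10.3%) ended 0 to 160 bp after the start, 1701 (29.4%) from 160 to 360 bp, 1660 (28.7%) from 360 to 540 bp and 1661 (28.7%) beyond. At 12 h these shares were 4.25%, 19.5%, 30.5% and 43.3%, and at 2 h 5.20%, 20.95%, 29.0% and 42.4%. Of the 598 members in the nearest zone, 171 (28.6%, 25.1 to 32.3) were still there at 12 h, 252 (42.1%, 38.2 to 46.1) ended in the next zone and 123 (20.6%) in the one after. Of the 1701 in the zone from 160 to 360 bp, 702 (41.3%) stayed and 651 (38.3%) moved by 1 zone outward, against 39 (2.29%) inward. The widened promoters started from a different place, as 564 of 1152 (49.0%, 46.1 to 51.8) ended 0 to 160 bp after the start in vehicle. Since narrow vehicle regions pass the 2-fold limit more easily, this last difference follows in part from the selection.

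The edges of both TGFβ lists lay closer to each other than to vehicle. Upstream edges at 2 h and 12 h were within 40 bp of each other in 61.4% of members and downstream edges in 51.1%, against 48.6% and 35.1% between vehicle and 12 h. The median distance between the 2 h and 12 h positions was 24 bp upstream and 38 bp downstream, and between vehicle and 12 h it was 43 bp and 95 bp. Vehicle was the shorter list, with 16765 regions against 32548 at 2 h and 33079 at 12 h, and the part of list length in these distances was not tested.

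What the members had in common beyond width was examined in the sequence from 250 bp before to 50 bp after the start nearest the middle of the vehicle region, a window of fixed length that does not depend on region width. By GC content of at least 50% and a ratio of observed to expected CpG of at least 0.6, 5921 of 7324 members were CpG-rich (80.8%, 79.9 to 81.7), beside 34.6% of all 86881 annotated starts. Their median GC content was 63.7% and the median CpG ratio 0.82. In the widened promoters 67.3% were CpG-rich (64.8 to 69.6), a difference of 13.6 percentage points (Newcombe interval 11.05 to 16.2) with the same sign on all 20 chromosomes. This difference went with vehicle width. Within 5 bins of equal size by vehicle width it was -1.10 points (-4.16 to 1.97).

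CpG-rich members were wider than the others, with 840 bp in vehicle and 992 and 1009 bp after 2 h and 12 h in the median, against 649, 802 and 790 bp. The median ratio of 12 h to vehicle was 1.17 in both. Of CpG-rich members 98.3% had a protein-coding start, and of the others 83.5%. Their downstream edges moved by 55.5 bp in the median at 12 h, against 39 bp in the others, and the downstream edge moved out more than the upstream one in 57.4% (56.0 to 58.8) and 55.7% (52.9 to 58.5), intervals that overlap. The share of CpG-rich promoters was lowest, at 62.0% (55.4 to 68.1), among the 221 members under 0.8 times their vehicle width at 12 h, and between 77.8% and 83.7% in all classes of ratio above it.

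Motifs were searched as exact letters on both strands of the same window. A GC box was found in 3998 members (54.6%, 53.4 to 55.7), a CCAAT box in 1181 (16.1%), the ETS motif in 706 (9.64%), the NRF1 motif in 445 (6.08%), the YY1 motif in 428 (5.84%) and the CRE palindrome in 286 (3.90%). In all annotated starts these shares were 24.8%, 10.1%, 3.89%, 2.69%, 3.48% and 1.76%. Thus each of the 6 was more frequent in members than in annotated starts at large, many of which are not accessible in any list. At least 1 of the 6 was found in all but 2058 members (28.1%), and 204 (2.79%) held 3 or more kinds. The window of 300 bp can hold a match without a bound factor, and a window without these letters says nothing of the factor.

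The matches had preferred places. Those to the YY1 motif lay at -2 bp from the start in the median (quartiles -102 and 19), while the medians were -46 bp for the ETS motif, -63 bp for the NRF1 motif, -73.5 bp for the GC box and -87.5 bp for the CCAAT box, negative values being before the start. The E-box CACGTG was found in 10.9% of members and ACTACAAT of ZNF143 in 1.08%, beside 6.66% and 0.82% of all starts. The E-box was thus also more frequent in members than in annotated starts at large. The TATA box TATAAA, searched 40 to 20 bp before the start on the strand of the gene, was present in 52 members (0.71%), beside 1.26% of all starts.

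The exact letters searched for factors that act with TGFβ signalling were found in few of these windows. SMAD was searched only as its full palindrome of 8 letters, and shorter SMAD sites were not searched. TGACTCA of AP-1 was found in 268 members (3.66%, 3.25 to 4.11), GGAATGT of TEAD in 183 (2.50%) and the SMAD palindrome GTCTAGAC in 10 (0.14%), beside 4.37%, 3.49% and 0.20% of all starts. The AP-1 share lay near the 3.90% of the CRE palindrome, but AP-1 was below its 4.37% of all starts and CRE above its 1.76%. The raw shares cannot be compared directly, since 7 letters were searched for AP-1 and a palindrome of 8 for CRE. AP-1 letters were found in 9.05% of the members that were not CpG-rich and in 2.38% of those that were.

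Set against the widened promoters, members differed by little in most motifs. The GC box was 8.40 percentage points more frequent (5.59 to 11.2), the CCAAT box 3.22 points (1.22 to 5.06) and the NRF1 motif 1.34 points (0.02 to 2.47), while the difference for AP-1 was -1.28 points (-2.58 to -0.18). Once vehicle width was taken into account, the order changed. Within the width bins the GC box was less frequent in members, with a difference of -5.30 points (-8.57 to -2.03), and the ETS motif more frequent, by 3.51 points (1.55 to 5.47). The intervals of the CCAAT box, NRF1 and AP-1 then included 0. The ETS motif was found in 7.24% (4.51 to 11.4) of members under 0.8 times their vehicle width and in 12.1% (10.5 to 13.9) of those from 1.5 to under 2 times, intervals that overlap. These classes also differed in median vehicle width, with 1037 and 584 bp, and by vehicle width alone the share of members with the motif fell from 12.8% in the narrowest to 5.59% in the widest of the 5 bins. The ratio that forms these classes was used for the selection.

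**Figure D4:**
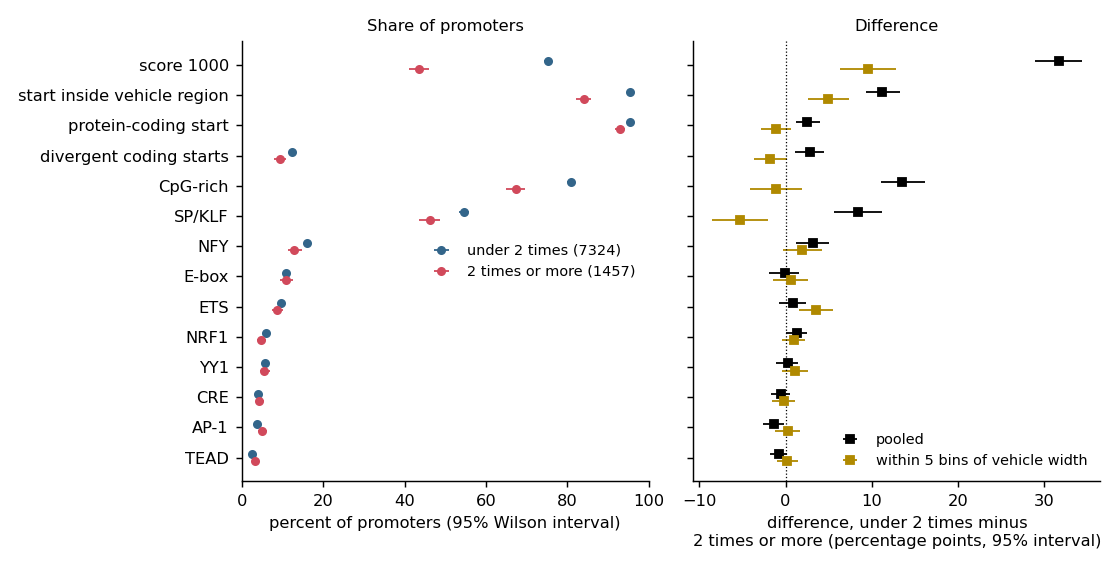
Left, percent of promoters with each feature (points, with 95% Wilson intervals) among the 7324 members (blue) and the 1457 widened promoters (red). Right, the difference in percentage points with 95% intervals, pooled (black) and within 5 bins of vehicle width (ochre). CpG content and the GC box are more frequent in members when pooled but not within bins of width, the score stays higher in members, and the interval of the ETS motif lies above 0 within bins only.

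In annotation, 6993 members (95.5%, 94.98 to 95.9) had the start of a protein-coding transcript, and 900 (12.3%) had coding starts on both strands. In the widened promoters these shares were 93.0% and 9.40%, and within width bins the difference was -1.13 points (-2.86 to 0.59) for coding starts and -1.75 points (-3.69 to 0.18) for coding starts on both strands, against 2.48 and 2.89 points pooled. The start lay inside the vehicle region in 95.2% of members and in 84.0% of widened promoters, a difference of 11.2 points (9.38 to 13.3) that was 4.99 points (2.65 to 7.34) within width bins. The vehicle peak score was at its maximum of 1000 in 75.2% of members (74.2 to 76.2) and in 43.5% of widened promoters (41.0 to 46.1). Within width bins this difference was 9.56 points (6.33 to 12.8), so that members had the higher share also within these bins. The narrowest bin spans 151 to 469 bp and holds 980 of the 1457 widened promoters. Width was not matched within a bin, and its remaining part in the difference was not tested. A region gained in both TGFβ lists lay within 10 kb of 13.97% of members and of 15.3% of widened promoters, a difference of -1.34 points (-3.43 to 0.60).

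The genes behind these promoters were grouped by lists written with earlier results of these data known. A gene stood for its shared promoter with the most coding starts, and genes may share a region. In all, 7722 of the 9175 coding genes with a shared promoter were members (84.2%), with a median ratio of 12 h to vehicle of 1.18. As this contrast is the one that chose the members, the counts of the lists are described and nothing is read from them.

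Genes often used as references for expression were members in 16 of 17 cases. The region of Ywhaz, a 14-3-3 protein, measured 2325 bp in vehicle and 2323 and 2329 bp after 2 h and 12 h, and was nearly equal in all 3 lists. The region of Ppia, cyclophilin A, had 1460, 1129 and 1450 bp, and that of Polr2a, the largest subunit of RNA polymerase II, 1568, 1190 and 1722 bp. Actb, which encodes cytoplasmic β-actin, had 1337, 1212 and 1336 bp. In these 3 genes the 2 h value was the lowest. Ppia had 2, 1 and 2 peaks in the 3 lists and Polr2a 2, 1 and 1, and any gap between peaks is counted as width. Actb had 1 peak in each list. Gapdh had 1173 bp in vehicle and 2039 and 1371 bp after 2 h and 12 h, and B2m, β2-microglobulin, 619, 1413 and 921 bp, so that there the 2 h value was the highest. Their peak counts were highest at 2 h too, with 2, 3 and 2 for Gapdh and 1, 2 and 1 for B2m. Pgk1 had 1440, 1376 and 1672 bp, Hprt 986, 1050 and 1137 bp, Sdha 740, 1108 and 832 bp, and Tfrc 718, 1004 and 903 bp. The largest ratio at 12 h belonged to Rplp0, a protein of the ribosomal stalk, with 531, 551 and 959 bp. Tbp, the narrowest region in vehicle, had 291, 508 and 463 bp, and Hsp90ab1 was the lowest in ratio with 2134, 2049 and 1958 bp.

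**Figure D5:**
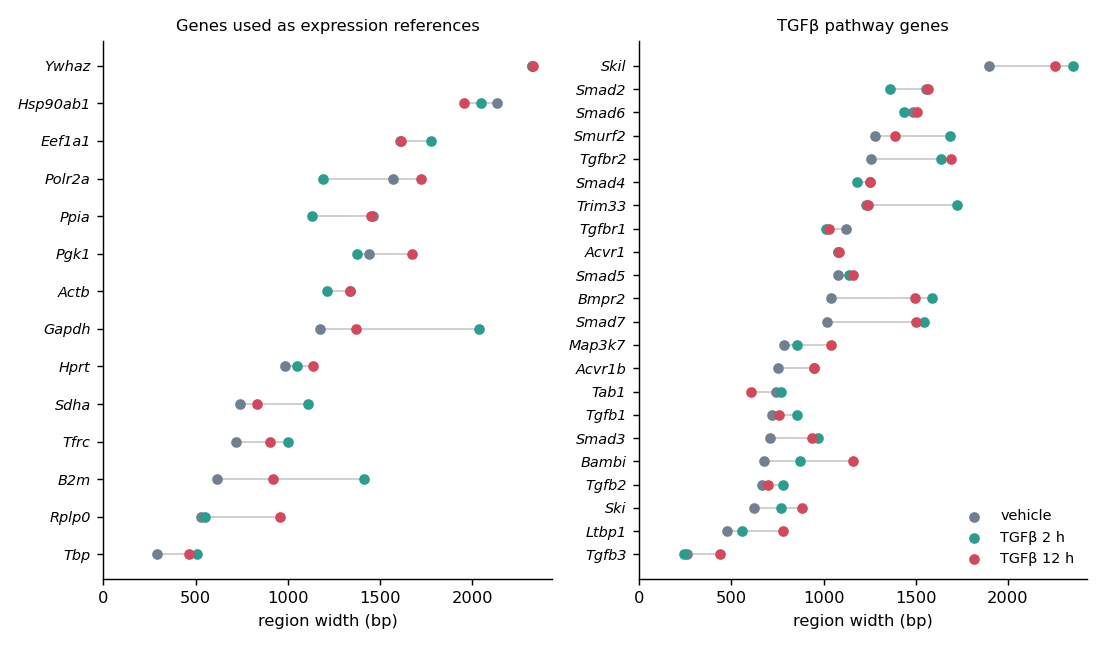
Region width in bp (horizontal axis) in vehicle (grey), at 2 h (green) and at 12 h (red) of TGFβ for 14 of the reference genes (left) and the 22 TGFβ pathway genes (right) whose promoters were members, ordered by vehicle width. Each point is 1 list made from both replicates, and the grey lines span the 3 values. Ywhaz and Acvr1 have nearly equal widths, while Smad7, Bmpr2 and Tgfbr2 are wider at both TGFβ times.

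Of the genes of the TGFβ pathway, 22 of 27 with a shared promoter were members, with a median ratio of 1.18 at 2 h and 1.14 at 12 h. Among the ligands, Tgfb1 had 721 bp in vehicle and 858 and 758 bp after 2 h and 12 h, Tgfb2 had 665, 780 and 698 bp, and Tgfb3 had 260, 245 and 440 bp. Ltbp1, which holds latent TGFβ in the matrix, had 479, 558 and 779 bp. The type I receptor Tgfbr1 had 1121, 1016 and 1027 bp, and the type II receptor Tgfbr2 had 1257, 1636 and 1691 bp. The first of these was thus narrower and the other wider at both times. Among related receptors, Acvr1 had 1078, 1076 and 1082 bp, Acvr1b 752, 950 and 947 bp and Bmpr2 1040, 1589 and 1497 bp. Bambi, a decoy receptor, had 675, 872 and 1160 bp. The nearest annotated start lay outside the vehicle region in Tgfb1, Tgfb3, Bmpr2 and Ski, and the region of Acvr1 also holds a start of Upp2.

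The SMAD genes differed among themselves. Smad4, the common partner, had 1254 bp in vehicle and 1180 and 1251 bp after 2 h and 12 h, and Smad2 had 1556, 1358 and 1564 bp, while Smad3 had 709, 968 and 937 bp. Of the others, Smad5, which acts in BMP signalling, had 1076, 1139 and 1162 bp and the inhibitor Smad6 had 1485, 1437 and 1508 bp. The inhibitor Smad7, a well-known target of the pathway, had 1019, 1546 and 1504 bp, a width about 1.5 times that in vehicle at both times (ratios 1.52 and 1.48). The corepressor genes Ski and Skil had 625, 772 and 881 bp and 1898, 2354 and 2253 bp. Smurf2, a ubiquitin ligase of the pathway, had 1281, 1688 and 1389 bp, and Trim33, another ligase that binds SMADs, had 1232, 1726 and 1240 bp. In these last 2 genes the width at 12 h was back near that of vehicle. Of the kinase branch, Map3k7 had 784, 858 and 1042 bp and its partner Tab1 had 743, 770 and 608 bp.

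Factors of the epithelial to mesenchymal transition were also found among the members. Snai2, a repressor of epithelial genes, had 992 bp in vehicle and 744 and 760 bp after 2 h and 12 h, while the HLH inhibitor Id3 had 788, 908 and 872 bp and Ets1 had 651, 677 and 787 bp. Thus the promoter of Snai2 was narrower in both TGFβ lists, a statement on peak width and not on transcription. Members made up 8 of 10 of the transition factors with a shared promoter and 9 of 14 of the matrix genes, where Itgb5 had 1134, 1388 and 1221 bp and Itga5 had 710, 848 and 1005 bp. Of the cell cycle genes 18 of 22 were members, among them the TGFβ target Cdkn2b, an inhibitor of CDK4 and CDK6, with 711, 898 and 901 bp, and E2f3 with 1389, 1456 and 2566 bp. E2f3 had 3 peaks in each list with nearly the same outer bounds (30076058 to 30078588 in vehicle, 30076044 to 30078609 at 12 h). A gap of at least 1000 bp between its peaks was left out in vehicle and at 2 h. At 12 h this gap was joined and counted.

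Immediate early and AP-1 genes had the widest regions in vehicle of all lists, with a median of 1427 bp, 1443 bp at 12 h, among 18 members of 21 genes. Klf6 had 972 bp in vehicle and 1032 and 1006 bp after 2 h and 12 h, and Maff had 1404, 2525 and 2405 bp. Maff and Mafk encode related small MAF proteins, and the region of Maff was wider and that of Mafk narrower at both times. Of 20 actin cytoskeleton genes 18 were members, with 1376, 1700 and 1054 bp at Zyx, a focal adhesion protein, and 1002, 1292 and 1727 bp at Myh9, non-muscle myosin. Zyx had 2 peaks in vehicle and at 2 h and 1 at 12 h. Of 13 junction genes 11 were members. There, Pkp2, a desmosomal plakophilin, had 919, 787 and 701 bp, F11r, a tight junction protein, 699, 756 and 771 bp, and Ctnnb1, β-catenin, 892, 1554 and 1558 bp.

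The lists of ribosomal proteins and of the proteasome had lower median widths in vehicle than the 828.5 bp of all coding member genes. This was not particular to them. The lists of spliceosome, replication, RNA polymerase II, nuclear pore, respiratory chain, zinc finger, transfer RNA synthetase and cell cycle genes also lay below it. Cytosolic ribosomal proteins were members in 54 of 70 cases, with a median of 652.5 bp in vehicle and 901.5 bp at 12 h, and 9 were narrower at 12 h. Their extremes were Rpl34, with 1252, 1286 and 872 bp, and Rpl17, with 210, 506 and 418 bp, and the middle was Rps27a with 719, 757 and 921 bp. Rpl34 had 2 peaks in vehicle and 1 at each TGFβ time. Mitochondrial ribosomal proteins were members in 60 of 69 cases, from Mrps5 with 648, 431 and 439 bp over Mrps14 with 660, 696 and 785 bp to Mrpl10. The proteasome, with 32 of 36, had the smallest median in vehicle of all lists, 568 bp, against 834.5 bp at 12 h. Of its 32 members 2 were narrower at 12 h, beside 17.8% of all coding member genes (1377 of 7722), and nothing is read from this since the same contrast chose the members. One of them was Psma5 with 981, 944 and 898 bp, while Psmd11 had 676, 1267 and 1239 bp. Psma5 shares its region with a start of 1700010K24Rik, and Psmd10 with one of Atg4a (769, 948 and 1055 bp).

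All 7 subunit genes of the cytosolic chaperonin CCT with a shared promoter were members. Their median was 941 bp in vehicle and 1031 bp at 12 h. Cct6a, in a region shared with Psph, had 941, 930 and 926 bp and was the only one narrower at 12 h, Cct8 had 1250 bp in vehicle and 997 and 1315 bp after 2 h and 12 h, and Cct4 had 509, 1012 and 958 bp. Of 39 replication genes 37 were members, between Rpa3 with 1169, 1109 and 961 bp and Gins3 with 500, 737 and 884 bp, with Rfc2 in the middle at 378, 452 and 442 bp. Of the 16 nuclear pore members of 18 genes 0 were narrower at 12 h, beside the same 17.8% of all coding member genes, from Nup153 with 1120, 1127 and 1128 bp over Nup37 with 517, 643 and 654 bp to Nup214 with 548, 708 and 833 bp. This rests on 1 list per condition, and Nup153 exceeded its vehicle width by only 8 bp.

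Members of the other lists spanned the whole range. Respiratory chain genes were members in 50 of 64 cases, with 679, 852 and 843 bp at Ndufa2 and 621, 838 and 1183 bp at Atp5a1. Transfer RNA synthetases were members in 30 of 35 cases, from Cars2 with 783, 783 and 620 bp over Iars with 531, 564 and 595 bp to Nars with 345, 390 and 656 bp. Spliceosome genes were members in 43 of 49 cases, with 1186, 525 and 711 bp at Snrnp35, 501, 678 and 673 bp at Sf3b4 and 405, 830 and 803 bp at Snrpb2. Genes of RNA polymerase II and its general factors were members in 57 of 69 cases, with 566, 440 and 437 bp at Polr2g, 953, 1066 and 1159 bp at Med10 and 252, 479 and 491 bp at Gtf2f2. Of translation initiation genes 40 of 47 were members, and Eif4ebp1, an inhibitor of cap-dependent translation, went from 3 peaks and 2688 bp in vehicle to 2 peaks and 1668 bp at 12 h, with 2738 bp at 2 h. The outer bounds of Eif4ebp1 were nearly the same in each list, and a gap of at least 1000 bp was left out at 12 h. The helicase genes Eif4a2 and Eif4a3 had 1363, 1557 and 1575 bp and 463, 859 and 889 bp. Of 217 zinc finger genes 177 were members, with 336, 390 and 398 bp at Zfp605 and 464, 1129 and 910 bp at Zfp410.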

How the data were processed

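ATAC-seq peak lists of NMuMG cells were used, 1 per condition. The authors mapped the reads to mm9, called peaks with MACS2 2.1.2 (per the labels) and kept those reproducible between both replicates. The deposited lists give chromosome, start and end. The deposited score of the vehicle list, set by the authors, reached its maximum of 1000 on 59.1% of lines, and in both TGFβ lists this column numbers the lines and was not used. The lists carry no reads, and the read numbers that the paper gives per library were not used. The intervals cover counting error only.

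Distinct intervals of at least 150 bp were merged over gaps under 1000 bp, within each list and then over all 3, and counted as bases from the first to the last base of each merged region. Starts are 5′ ends of GENCODE vM1 transcripts on NCBIM37, and coordinates are 1-based. Shares have 95% Wilson intervals, differences Newcombe intervals, and differences within 5 bins of vehicle width Mantel-Haenszel estimates. No p-values were computed. The members and gene lists were chosen with earlier results of these data known. Named genes were, per list, those with the lowest, middle and highest ratio among members, all reference and TGFβ pathway members, the 5 lowest, least variable and widest regions, and 3 regions on either side of the limit. Sequences shown are those of the first 2 genes in list order with a match, not on chromosome 18. Some named genes and 1 of these sequences are not reported here. The zones of the downstream edge were set after seeing the data. Merging, intervals and motif search were tested on simulated data. Alternatives concerned the gap, minimum width, margin, starts, limit, list length, sequence window and vehicle width. Software was numpy 2.4.6, scipy 1.17.1, pandas 2.3.3 and matplotlib 3.10.9 under Python 3.11.15.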

Additional observations from a re-analysis of the deposited data

How the results depend on the processing

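No paired analysis was possible because each condition had 1 list made from both replicates, and for the same reason no replicate could be left out. The number of members stayed within 1.5 times of 7324 under all 9 alternatives. The share wider at 12 h, at 2 h, and at 12 h against 2 h was 83.3%, 78.6% and 57.3% with gaps not filled, 78.5%, 73.0% and 58.0% with the TGFβ lists shortened to as many of their widest intervals as vehicle holds, 77.2%, 73.1% and 52.9% with a limit of 1.5 times, and 83.7%, 79.7% and 57.3% with a limit of 3 times, while gap, minimum width, margin and coding starts left it within its interval. Within bins of vehicle width the differences to the widened promoters reversed to -1.10 points for CpG content, -1.13 points for coding starts, -1.75 points for coding starts on both strands, -5.30 points for the GC box and 0.27 points for AP-1. The number of 12 motifs whose interval excluded 0 was 4, and 2 within these bins. Those 2 were the GC box and the ETS motif (3.51 points). It was also 2 among CpG-rich promoters, an alternative added after seeing the data. There they were the GC box (4.30 points) and the CCAAT box (4.70 points). Under the other alternatives it was 3 or 5. From 100 bp before to 50 bp after the start, the CCAAT difference was 0.30 points (-1.44 to 1.87). The intervals of NRF1 and AP-1 then included 0 too, and those of CRE and ZNF143 lay below 0. The share of members with more downstream movement was between 57.0% and 57.4% under the 4 alternatives run for it, 2 of which (a single start, or 1 interval in every list) were added after seeing the data. TATA was not recomputed for other windows. The paper gives read numbers per library, but they were not used. The part of depth and of peak detection in any width was thus not tested.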
